A study of Mus musculus with 4 samples.

Results

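Naive CD4+ T cells are held in a resting state by a group of transcription factors, and the genes of 10 of them, TCF7, LEF1, FOXP1, KLF2, KLF3, BACH2, SATB1, BCL11B, ID3 and ETS1, were followed here in activated naive and effector/memory T cells. They were chosen by name with earlier results of these data known, each as the gene model of that symbol. They make up 10 of the 38588 gene models in the files. The RbHiTn subset was sorted as CD4+ FoxP3- cells with high CD45Rb that carried CD62L but not CD44, the naive phenotype. The RbLoTem subset was sorted as CD4+ FoxP3- cells with low CD45Rb that carried CD44 but not CD62L, the effector/memory phenotype. Both came from the spleens of resting C57BL/6-Foxp3tm1Flv/J mice, a strain in which FoxP3-expressing cells carry a red fluorescent reporter, and both were cultured for 72 h in wells coated with 2 μg of anti-CD3 antibody, and unstimulated cells were not analysed here. Neither the age of the mice nor how many were pooled for a library is given in the sources used here.

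Each subset had 2 libraries, of which 1 carries the suffix o, a mark that the sources used here do not explain. Values of the 4 libraries are given below in the order RbHiTn, RbHiTn with suffix o, RbLoTem and RbLoTem with suffix o. Reads in genes numbered between 4192083 and 6514106 per library. RPKM here relates the exon reads of a gene to its exon length in kb and to each 1000000 gene reads of the library. Symbols and positions of the models are human, on a build that the files do not name, while the cells are murine, so reads in stretches where the species differ can be lost and levels of different genes are less comparable than levels of 1 gene between libraries. For all 10 genes the deposited median coverage was 0 in all 4 libraries, and it was above 0 for only 500 to 553 models per library.

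In resting naive T cells TCF7 (the protein TCF-1) and LEF1 bind the same DNA motif through an HMG box and keep up the naive program, and FOXP1 is a forkhead repressor that maintains quiescence. KLF2 and KLF3 are zinc finger factors, of which KLF2 drives genes for exit from and entry into lymphoid tissue, such as S1PR1, and is known to be shut off by T cell receptor signals. BACH2 restrains effector genes by competing with AP-1, SATB1 organizes chromatin loops, BCL11B holds T cell identity, ID3 blocks the DNA binding of E proteins and ETS1 is an ETS family activator needed for T cell survival. Several of them are known to be lowered when naive cells become effector cells.

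Promoter windows of the mouse genes, from 250 bases before to 50 bases after each annotated start, were found for 9 of the 10 genes (RefSeq, GRCm38.p6, 19 windows). ETS1 had none. The 3 windows below were picked after the motif search, as the Tcf7 window with matches of most kinds, the Foxp1 window with a pair of TCF/LEF matches and the Satb1 window whose TCF/LEF match lies nearest to its start. They lie at chr11:52282546-52282845, chr6:99266466-99266765 and chr17:51812135-51812434, all on the minus strand, and are printed 5′ to 3′ along the gene with motif matches in capitals.
Tcf7: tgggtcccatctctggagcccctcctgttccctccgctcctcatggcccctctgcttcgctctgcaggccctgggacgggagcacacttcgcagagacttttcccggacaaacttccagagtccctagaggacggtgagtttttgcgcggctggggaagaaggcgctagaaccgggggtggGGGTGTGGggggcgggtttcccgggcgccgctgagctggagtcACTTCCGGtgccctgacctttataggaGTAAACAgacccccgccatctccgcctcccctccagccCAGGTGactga
Foxp1: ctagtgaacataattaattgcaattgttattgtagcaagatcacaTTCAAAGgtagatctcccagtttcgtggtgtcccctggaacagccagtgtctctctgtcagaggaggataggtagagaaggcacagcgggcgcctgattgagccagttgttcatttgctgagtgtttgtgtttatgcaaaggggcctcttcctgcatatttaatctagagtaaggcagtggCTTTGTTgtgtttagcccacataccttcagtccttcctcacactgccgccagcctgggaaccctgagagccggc
Satb1: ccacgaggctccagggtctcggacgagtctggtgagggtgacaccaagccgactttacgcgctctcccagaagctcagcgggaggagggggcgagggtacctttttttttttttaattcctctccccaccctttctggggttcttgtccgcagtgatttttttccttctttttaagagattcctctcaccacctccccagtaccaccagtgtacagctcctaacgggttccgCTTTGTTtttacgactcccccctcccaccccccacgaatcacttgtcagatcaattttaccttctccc

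The motifs searched on both strands were TGTTTAC for FOXO, CTTTGAA and CTTTGTT for TCF/LEF, CCACACCC for KLF, CCGGAAGT for ETS, CAGGTG and CAGCTG for E proteins and TGACTCA for AP-1/BACH, and no match overlapped another kind in the printed windows. In the Tcf7 window the KLF match began 69 bases and the ETS match 26 bases upstream of the start, and the FOXO match 1 base downstream. In the Foxp1 window the TCF/LEF matches began 205 and 24 bases upstream, and in the Satb1 window 18 bases upstream. A TCF/LEF match was found in 5 of the 19 windows, which belong to Foxp1, Satb1 and Bcl11b (the Satb1 windows overlap and share the match), and in 10.6% of all 32851 windows of the same length. An E protein match was found in 7 of 19 windows and in 32.9% of all, and an AP-1/BACH match in none of 19 and in 5.20% of all. FOXO, KLF and ETS matches were each found in 1 of 19, the Tcf7 window, and in 3.65%, 3.56% and 3.89% of all. Matches describe letters only, and were shared by genes that moved in opposite directions (Foxp1 and Satb1). Other spellings of each motif were not searched, so a window without a match may still hold a site.

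Between the activated subsets, 8 of these genes were lower in RbLoTem cells and SATB1 was higher. Of the 10 genes 9 passed the filter on low counts (KLF2 did not). ID3 passed through its reads in RbHiTn cells only, so its direction was fixed in advance if tested at all. It is among the lower genes in each count below, so those counts include 1 gene that could only be lower. By edgeR's quasi-likelihood test, 8 of the 9 were lower and 1 higher at an adjusted p under 0.05, where 23.6% of all 6539 tested genes were lower and 24.3% higher. By DESeq2 the counts for the 9 genes were also 8 and 1, against 15.2% and 17.1% of all. Against a log2 fold change of 1 in size, 5 of the 9 were lower (TCF7, LEF1, FOXP1, BACH2 and ID3) and none higher, against 3.47% and 4.17% of all. The median log2 fold change of the 9 was -1.55 and that of all tested genes -0.01. Because the 10 genes were chosen with earlier results of these data known, these contrasts with all genes describe them and test nothing. Whether libraries of 1 subset are separate cultures or animals is not stated, so the p-values reflect library to library spread alone, and that spread may be technical.

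**Figure D1:**
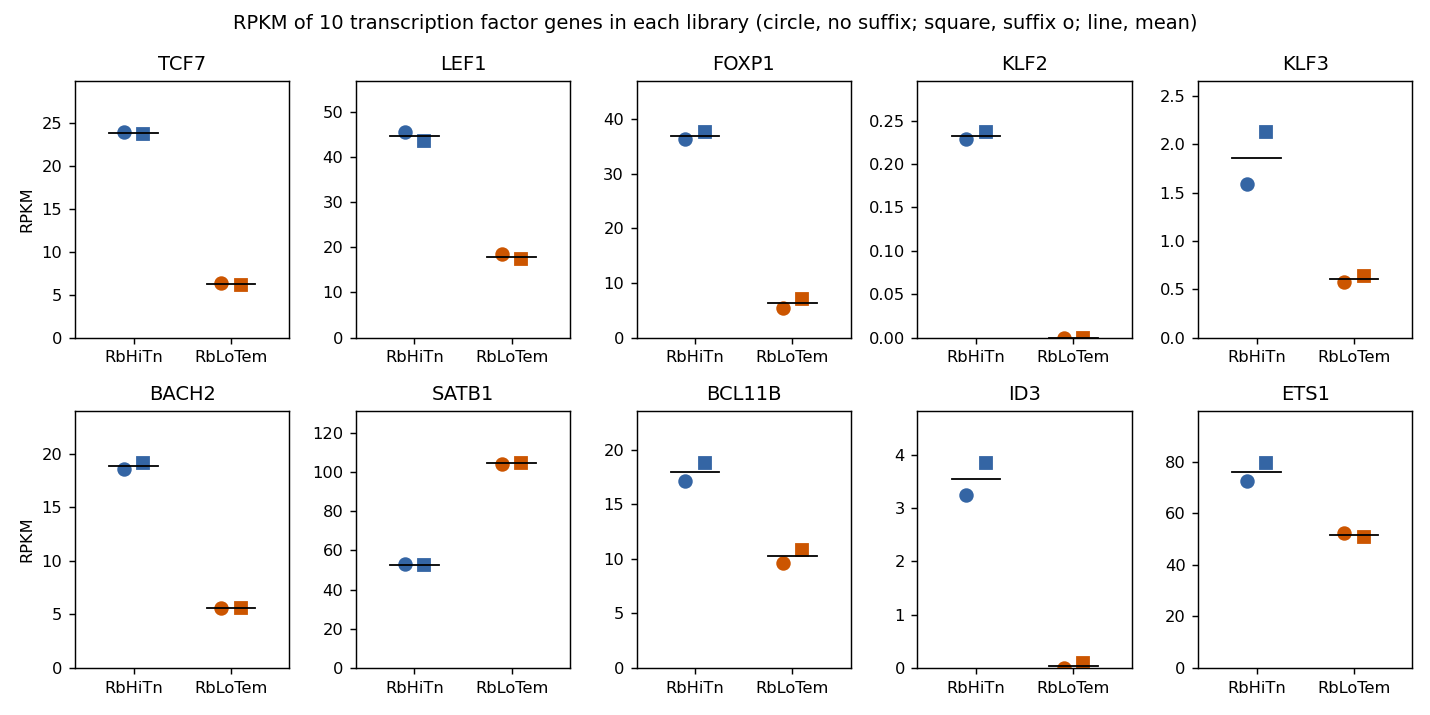
RPKM (linear axis from 0, a separate scale for each gene) of the 10 factor genes in the 4 libraries, with circles for libraries without the suffix, squares for those with suffix o and a line at the mean of each subset. Both RbLoTem libraries lie below both RbHiTn libraries for every gene except SATB1, which lies above.

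In RPKM the libraries of the subsets did not overlap for any of the 10 genes. RPKM was lower in both RbLoTem libraries than in either RbHiTn library for all of the 9 tested factor genes except SATB1, which was higher. Of all tested genes, 37.6% were lower and 34.8% higher without overlap. KLF2 was lower too, but was not tested and had only 3, 2, 0 and 0 reads. An exact permutation test of 2 against 2 libraries cannot give a two-sided p below 0.333.

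TCF7 was at an RPKM of 23.9, 23.7, 6.36 and 6.09 in the 4 libraries, from 1567, 1001, 299 and 394 reads. The RbHiTn libraries were close to each other and both far above the RbLoTem libraries. Its mean was 23.8 ± 0.124 in RbHiTn cells and 6.22 ± 0.191 in RbLoTem cells (SD, n = 2 libraries), 3.81-fold lower, and the log2 fold change was -1.93 (SE, the standard error, 0.07, edgeR adjusted p = 4.3e-20). Its model is placed at bases 133450402 to 133487556 of human chromosome 5.

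LEF1, the other TCF family gene of T cells, was at an RPKM of 45.4, 43.6, 18.4 and 17.3, from 1586, 980, 462 and 598 reads. It was lower in both RbLoTem libraries, by a smaller fold than TCF7. The log2 fold change was -1.31 (SE 0.07, edgeR adjusted p = 2.0e-16), or 2.48-fold lower. The difference between the paralogs can be read within each library, where scaling plays no part: TCF7 was at 0.526 and 0.544 of the RPKM of LEF1 in the RbHiTn libraries and at 0.345 and 0.351 in the RbLoTem libraries. The ratio therefore fell between the subsets by more than the spread between libraries of 1 subset. The LEF1 model is placed at bases 108968701 to 109090112 of human chromosome 4.

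FOXP1 was at an RPKM of 36.3, 37.5, 5.46 and 7.09, from 3163, 2101, 341 and 609 reads. Both RbLoTem libraries were far below the RbHiTn libraries, with more spread between themselves. At 5.78-fold lower it had the largest decrease among the factor genes with more than 1 read in each library, with a log2 fold change of -2.53 (SE 0.08, edgeR adjusted p = 1.0e-22). That SE understates the spread: with a library left out the value ranged from -2.74 to -2.36, and by DESeq2 the SE was 0.18. The change ranked 107 from the lowest among 6539 tested genes, against 162 for TCF7 and 309 for LEF1. The FOXP1 model is placed at bases 71003844 to 71633140 of human chromosome 3.

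BACH2, a repressor that pairs with small MAF proteins, was at an RPKM of 18.6, 19.2, 5.60 and 5.60, from 565, 375, 122 and 168 reads. The 2 RbLoTem libraries were nearly equal and well below the RbHiTn libraries. Its log2 fold change was -1.74 (SE 0.11, edgeR adjusted p = 5.2e-15), 3.35-fold lower. Of its reads 82.3% in RbHiTn cells and 82.8% in RbLoTem cells matched a single place, and from these alone the log2 fold change was -1.75. The BACH2 model is placed at bases 90641204 to 91006461 of human chromosome 6.

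ID3 had 38, 29, 0 and 1 reads, and an RPKM of 3.25, 3.85, 0 and 0.087. It was close to absent from the RbLoTem libraries at this depth. The ratio of reads was 69.5-fold lower in RbLoTem cells, with an exact 95% counting interval from 12.1 to 2786 that covers counting error only. The fitted log2 fold change was -5.80 (SE 0.65, edgeR adjusted p = 6.2e-09), which depends on the prior count. ID3 passed the filter through RbHiTn reads only, so its direction was fixed in advance and this p-value adds no support. With the RbLoTem library with suffix o left out no read was left in that subset, and taking 3 reads for the whole group as the floor the value was at least 9.75-fold lower. Only 1 read in each RbHiTn library spanned an exon junction (2.63% and 3.45% of reads). The ID3 model is placed at bases 23884409 to 23886285 of human chromosome 1.

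The Krüppel-like factors had few reads. KLF3 had 65, 56, 17 and 26 reads, an RPKM of 1.58, 2.12, 0.578 and 0.642. The subsets did not overlap, with a wider gap between the RbHiTn libraries than between the RbLoTem libraries. Its log2 fold change was -1.55 (SE 0.27, edgeR adjusted p = 1.1e-05), and the ratio of reads was 2.92-fold lower (exact 95% counting interval 2.05 to 4.24, for counting error only). KLF2 had 3, 2, 0 and 0 reads, too few for the test. With the same floor it was at least 1.73-fold lower, a bound that takes the 5 reads in RbHiTn cells as exact, and the counting interval of its ratio includes no difference, so a difference was not detectable with these reads. The KLF3 model is placed at bases 38665817 to 38702663 of human chromosome 4, and that of KLF2 at bases 16435628 to 16438685 of chromosome 19.

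BCL11B and ETS1, which T cells of all stages express, had the smallest decreases. BCL11B was at an RPKM of 17.1, 18.8, 9.60 and 10.9, from 844, 597, 339 and 528 reads. ETS1 was at an RPKM of 72.3, 79.6, 52.4 and 50.8, from 3369, 2387, 1752 and 2338 reads. Both genes were lower in both RbLoTem libraries, and both stayed well detected. The log2 fold change was -0.79 for BCL11B (SE 0.08, edgeR adjusted p = 1.3e-09) and -0.55 for ETS1 (SE 0.06, edgeR adjusted p = 1.1e-09). These are 1.73-fold and 1.46-fold lower, and neither passed the test against a log2 fold change of 1. The BCL11B model is placed at bases 99635624 to 99737565 of human chromosome 14, and that of ETS1 at bases 128328656 to 128457453 of chromosome 11.

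SATB1 went the other way. It was at an RPKM of 52.9, 52.3, 104.0 and 104.9, from 2074, 1320, 2927 and 4060 reads. The libraries of each subset were close to each other, and both RbLoTem libraries were at about the same distance above both RbHiTn libraries. The log2 fold change was 1.00 (SE 0.05, edgeR adjusted p = 3.0e-16), higher than in 92.8% of all tested genes. Only 67.0% of its reads in RbHiTn cells and 66.9% in RbLoTem cells matched a single place, and from these alone the log2 fold change was 0.98. The SATB1 model is placed at bases 18393295 to 18486365 of human chromosome 3.

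**Figure D2:**
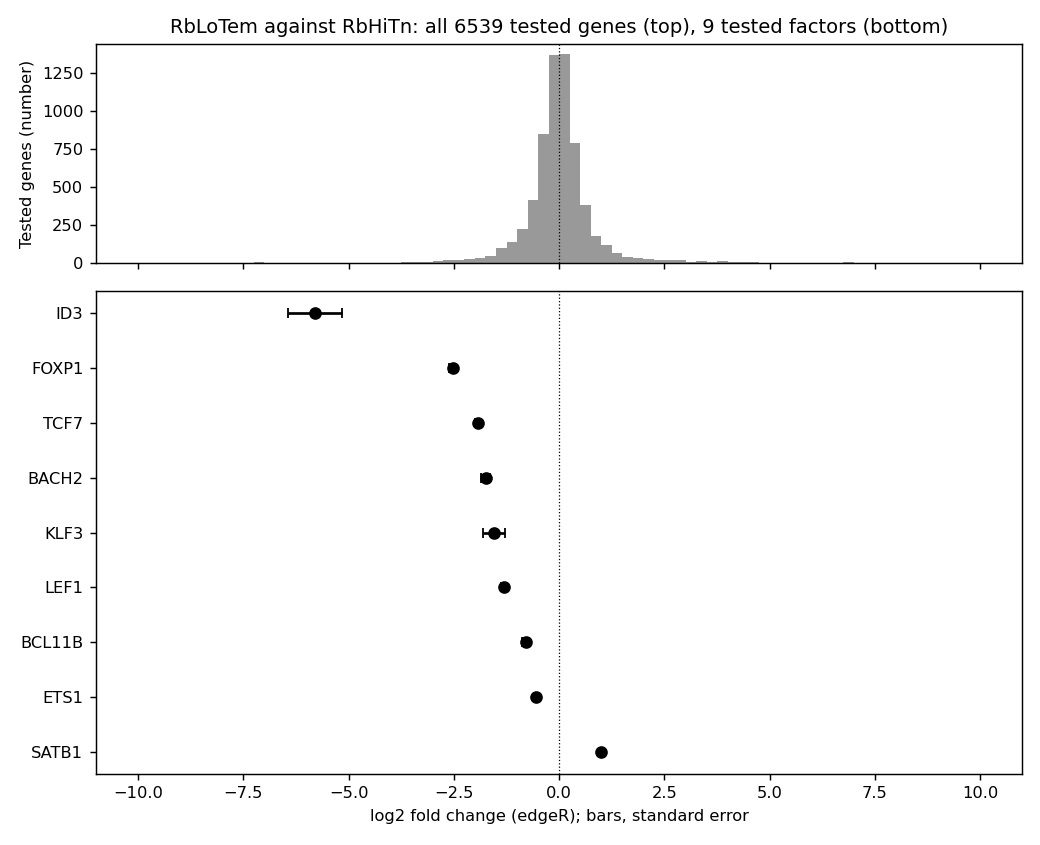
log2 fold change in RbLoTem against RbHiTn cells from edgeR, as a histogram of all 6539 tested genes (top, number of genes per bin of the log2 axis) and for the 9 tested factor genes with standard errors (bottom). ID3 (-5.80) and FOXP1 (-2.53) lie farthest below 0, and SATB1 (1.00) alone lies above it.

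The order of the factors by RPKM therefore differed between the subsets. In RbHiTn cells ETS1 (76.0 ± 5.16) was highest, before SATB1 (52.6 ± 0.412), LEF1 (44.5 ± 1.28), FOXP1 (36.9 ± 0.827) and TCF7 (23.8 ± 0.124; SD, n = 2 libraries). BACH2 (18.9 ± 0.412) and BCL11B (18.0 ± 1.20) followed with overlapping libraries, then ID3 (3.55 ± 0.427), KLF3 (1.85 ± 0.380) and KLF2 (0.232 ± 0.006). In RbLoTem cells SATB1 (104.5 ± 0.584) was highest, before ETS1 (51.6 ± 1.12), LEF1 (17.9 ± 0.775) and BCL11B (10.2 ± 0.894). FOXP1 (6.27 ± 1.15) overlapped with TCF7 (6.22 ± 0.191) and with BACH2 (5.60 ± 0.003), and KLF3 (0.610 ± 0.045) and ID3 (0.043 ± 0.061) came last with KLF2, which had no read. Among all models SATB1 moved from rank 775 and 793 by RPKM in the RbHiTn libraries to 433 and 432 in the RbLoTem libraries, and FOXP1 from 1053 and 1039 to 3410 and 3053. These orders use all exon reads. In RbHiTn cells 67.0% of SATB1 reads matched a single place, against 98.8% for LEF1 and 100% for FOXP1. The place of SATB1 among them from unique reads was not computed.

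**Figure D3:**
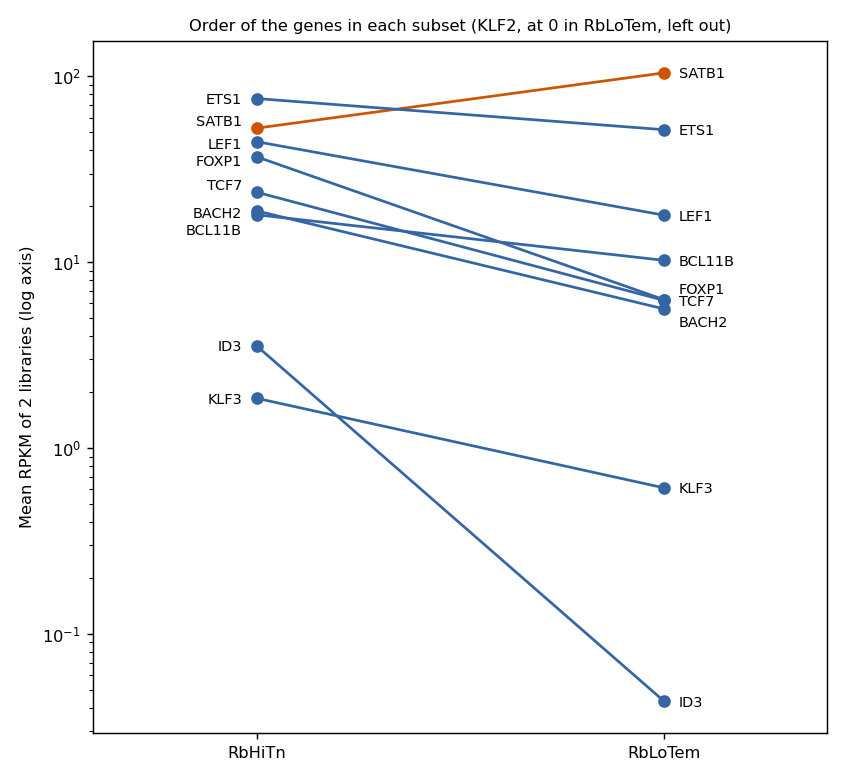
Mean RPKM of the 2 libraries of each subset on a log axis, with a line joining the means of 1 gene (orange where higher in RbLoTem, blue where lower). SATB1 passes ETS1, BCL11B passes FOXP1, TCF7 and BACH2, and ID3 falls below KLF3, while KLF2 is left out because it had no read in RbLoTem cells.

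Ratios between genes within a library show the same reordering without any scaling. SATB1 was at 0.732 and 0.657 of the RPKM of ETS1 in the RbHiTn libraries and at 1.99 and 2.06 in the RbLoTem libraries. Relative to FOXP1 it was at 1.46 and 1.39 in RbHiTn and at 19.1 and 14.8 in RbLoTem libraries. BACH2 was at 1.08 and 1.02 of BCL11B in RbHiTn and at 0.583 and 0.516 in RbLoTem libraries. The 10 genes together took 2038 and 2111 reads per 1000000 reads in genes in the RbHiTn libraries and 1339 and 1356 in the RbLoTem libraries. SATB1 made up 15.6% and 14.9% of these reads in RbHiTn libraries and 46.8% and 46.5% in RbLoTem libraries.

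Relatives and partners of the factors moved in both directions. Models existed for 48 of 72 such genes in 7 lists, reads for 40 and a test for 30, of which 16 were lower and 8 higher by edgeR and 6 were not called, with a median log2 fold change of -0.31, where 23.6% of all tested genes were lower and 24.3% higher. BCL11A and SPI1, among the 16, passed the filter through their RbHiTn reads only. Among partners of TCF-1 and LEF1, 5 of 7 were lower and 1, TLE3 (log2 fold change 0.18, standard error 0.06), was higher, against the same 23.6% and 24.3% of all. BCL9 and BCL9L, coactivators that bind β-catenin, had log2 fold changes of -1.35 (SE 0.16) and -1.45 (SE 0.14), and CTNNB1, the gene of β-catenin itself, of -0.38 (SE 0.05). AXIN2, a target of this pathway, had 77, 51, 33 and 39 reads and a log2 fold change of -0.87 (SE 0.22). FOXP4 and FOXO3, the 2 tested forkhead relatives, were lower, with -0.45 (SE 0.08) and -0.46 (SE 0.11), and only 31.9% of FOXO3 reads matched a single place.

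**Figure D4:**
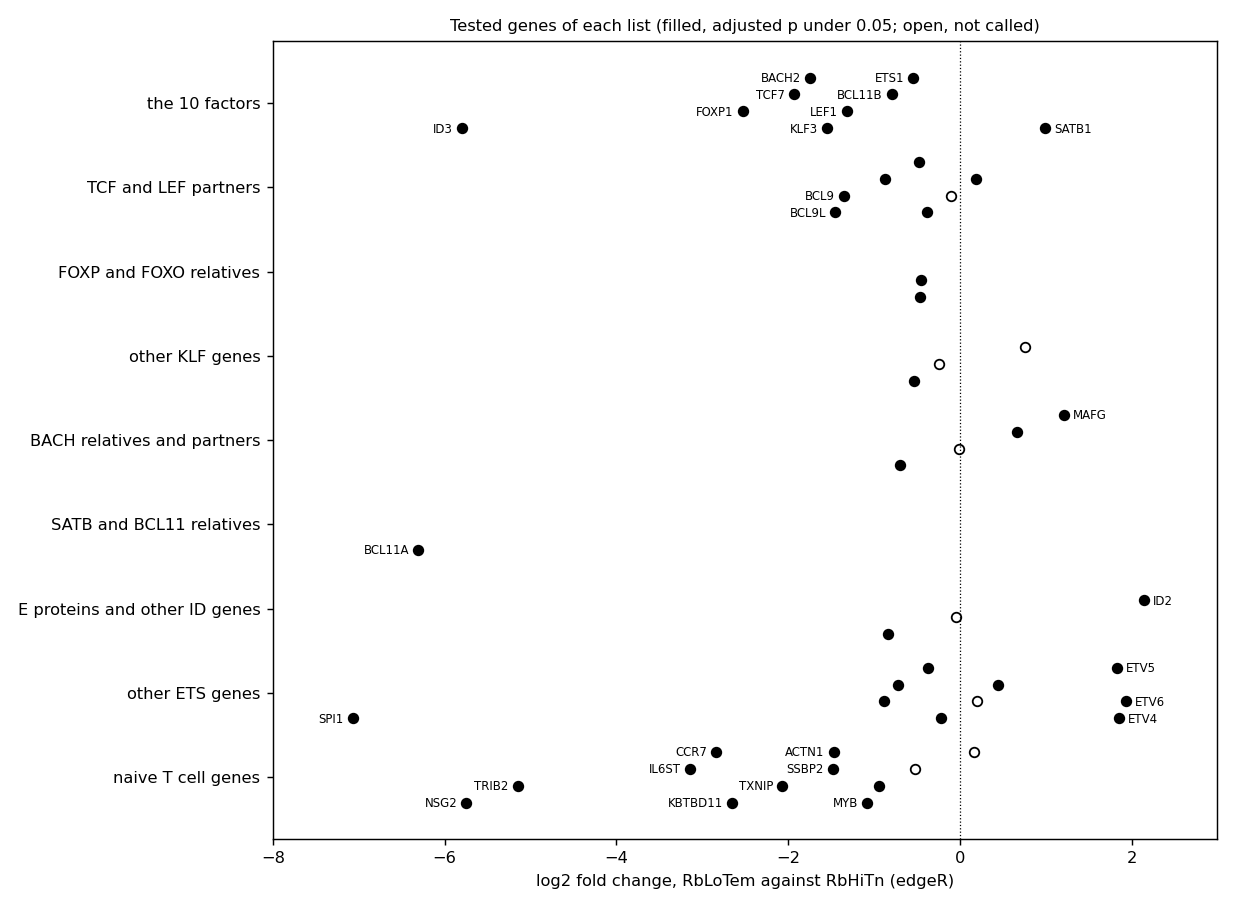
log2 fold change in RbLoTem against RbHiTn cells (edgeR) of the tested genes of each list, filled where the adjusted p was under 0.05 and open where not, with the vertical offset within a list only for legibility. The 10 factors (9 tested) and the naive T cell genes lie mostly below 0, and ID2, ETV4, ETV5 and ETV6 lie near 2 above it; the fitted value of SPI1, with no read in RbLoTem cells, depends on the prior count.

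ID2 moved against ID3. ID2, whose protein blocks E proteins as ID3 does and is known from effector cells, was at an RPKM of 40.2, 39.4, 175.3 and 175.8, a log2 fold change of 2.15 (SE 0.07, edgeR adjusted p = 1.7e-22). The RbLoTem libraries were both far above the RbHiTn libraries. Of their E protein targets, TCF12 had a log2 fold change of -0.84 (SE 0.08) and TCF3 of -0.04 (adjusted p = 0.85 from edgeR). BCL11A, the paralog of BCL11B and a gene of B cells and dendritic cells, had 221, 108, 0 and 4 reads, 85.3-fold lower (exact 95% counting interval 33.0 to 315.0).

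Of 10 other ETS genes tested 5 were lower, SPI1 included, and 4 higher, with a median log2 fold change of -0.01, against 23.6% lower and 24.3% higher among all tested genes. ETV6, a repressor of the family, was at an RPKM of 16.7, 18.3, 67.3 and 65.5, a log2 fold change of 1.94 (SE 0.08). ETV4 and ETV5, targets of MAP kinase signals in many cell types, had log2 fold changes of 1.86 (SE 0.26) and 1.83 (SE 0.18). SPI1, the gene of the myeloid and B cell factor PU.1, had 23, 10, 0 and 0 reads, at least 11.4-fold lower by the same floor. It is listed among the dendritic cell and macrophage markers as well. Among small MAF partners of BACH2, MAFG was higher, at a log2 fold change of 1.21 (SE 0.26), and MAFK was at -0.01 (adjusted p = 0.97 from edgeR). Of the 3 other KLF genes tested, KLF13 alone was called, at -0.53 (SE 0.13).

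Most tested genes of the naive T cell list were lower, as most of the factors were. Models existed for 19 of its 27 genes, reads for 15 and a test for 12, of which 10 were lower, none was higher and BTG2 and TOB1 were not called, with a median log2 fold change of -1.78, against 23.6% lower and 24.3% higher among all tested genes. Of the 10, NSG2, TRIB2 and IL6ST passed the filter through RbHiTn reads only, so their direction was fixed in advance. In each of 15 other ways of testing, none was called higher. This list too was chosen with earlier results of these data known, so its contrast with all genes is no test. CCR7, which guides naive cells into lymph nodes, was at an RPKM of 41.1, 36.7, 6.14 and 4.90. NSG2, TRIB2 and IL6ST (a shared receptor subunit of the IL-6 family) were 56.0-fold (exact 95% counting interval 26.9 to 140.3), 36.6-fold (17.5 to 92.0) and 9.34-fold (3.72 to 30.1) lower in ratios of reads. S1PR1, the KLF2 target named above, had 6, 0, 2 and 3 reads and was not tested.

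Markers of other cell types also differed between the subsets, and in bulk RNA fewer cells of a type and less RNA per cell cannot be told apart. Models existed for 12 of 17 B cell markers, reads for 8 and a test for 6, and all 6 were lower in RbLoTem cells, where 23.6% of all tested genes were. For 5 of the 6 this direction was fixed by the filter, which they passed through RbHiTn reads only. The summed RPKM of the list was 9.35 and 10.2 in the RbHiTn libraries and 0.278 and 0.328 in the RbLoTem libraries. CD79A, MS4A1 and BLK were among those at 0 reads in both RbLoTem libraries, and CD79B, CD22, FCER2 and FCRLA in all 4. Of 17 dendritic cell and macrophage markers 14 had a model and 6 were tested, all lower, with a summed RPKM of 24.5 and 18.4 against 2.49 and 2.83, and 8 models, among them CSF1R, ITGAX and CD14, at 0 in all 4 libraries. Of these 6 lower genes 4 (SPI1, CD74, HLA-DQA1 and HLA-DRB1) passed the filter through RbHiTn reads only, and the others were CTSS and IRF8. Whether the reads of these 6 genes came from dendritic cells, macrophages or B cells was not tested. B cells are known to express BACH2, FOXP1, ETS1, KLF2, KLF3 and ID3 as well, and the part of such cells in the lower values of these genes was not tested. Bead selection for CD4 and the sort on CD4+ cells preceded the culture and would remove B cells.

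Of 9 tested T cell markers, CD3E, CD3G and LCK were lower in RbLoTem cells, none was higher and 6 were not called, with a median log2 fold change of -0.10 and 23.6% of all tested genes lower, while CD3D, CD2 and CD28 had no read in any library. CD4 had between 1 and 4 reads per library. Of 7 models of CD8 T cell and NK cell markers, EOMES had reads (140, 71, 2 and 8, passing the filter through RbHiTn only), and CD8A, CD8B, NKG7, KLRD1, NCR1 and GZMB had none in all 4 libraries. CD3D, CD2 and CD28 lacked reads although CD4+ T cells were sorted. A marker without reads on these human models therefore does not show that its cell type was absent.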

How the data were processed

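Messenger RNA of 2 RbHiTn and 2 RbLoTem libraries was sequenced. The paper's methods name Trimmomatic, TopHat with mm10 and Gencode vM4, htseq-count, RPKM in R and DESeq2, and the submitters' processing notes list the same tools. The deposited read counts per gene model come in another layout with human symbols, and the sources used here give neither aligner, annotation and build nor use of strand for it, so antisense genes and paralogs cannot be separated. The deposited RPKM values equal exon reads per kb and per 1000000 gene reads. The deposited median coverage signal was only described.

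Total exon reads of all models entered the quasi-likelihood test of edgeR 4.0.16 (R 4.3.3) after filterByExpr and TMM scaling, with Benjamini-Hochberg adjustment over the 6539 genes kept and a threshold of 0.05. The standard error is the log2 fold change divided by the square root of F. Folds without a log are powers of the fitted value unless given as ratios of reads, which carry exact Clopper-Pearson 95% intervals. As alternatives the comparison was run with DESeq2 1.42.0, with limma 3.58.1 after adding 0.1 or 1 to RPKM before log2, with other scaling, without the filter, on unique or gene reads, with a log2 fold limit of 1, a block on the suffix and each library left out. The test was tested on simulated data. Related genes were named where called and at least 1 apart on the log2 scale with subsets not overlapping, at most 4 per list and direction. Other list genes named were picked after their values were seen. The 10 genes and all lists were chosen with earlier results of these data known.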

Additional observations from a re-analysis of the deposited data

How the results depend on the processing

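Of 135 log2 fold changes of the 9 tested factor genes under 15 alternatives, 131 kept their direction and their side of the threshold, and none changed sign. The other 4 came from the edgeR test against a log2 fold change of 1, which KLF3 (-1.55, adjusted p = 0.080), SATB1 (1.00, adjusted p = 1), BCL11B (-0.79, adjusted p = 1) and ETS1 (-0.55, adjusted p = 1) did not pass. That stricter null left 5 factor genes lower and 0 higher, 3 related genes lower and 4 higher, and 227 genes lower and 273 higher in all, and DESeq2 called 991 genes lower. Leaving out each library in turn, the count of factor genes was always 8 lower and 1 higher, and the counts over all genes lay between 1217 and 1381 lower and between 1237 and 1483 higher, against 1545 and 1592 with all 4 libraries.

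The fold of ID3 was least certain, from -8.01 to -5.14 on the log2 scale with a library left out and -2.12 by limma on log2(RPKM + 1), and that of KLF3 was -0.82 there. The added constant understates changes of low genes. With the label suffix as a replicate block, 1530 genes were lower and 1562 higher. Deviations of libraries with the same suffix correlated at -0.01 across genes, so the suffix gave no sign of pairing. KLF2 had too few reads to pass the filter, and whether depth or the human gene models set its count was not tested.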

Other observations

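On the human models, reads of the factor genes lay almost wholly in exons. Intron reads of the murine cells can be lost where the species differ, so the share is no measure of RNA with introns. Reads in a gene but outside its exons were at most 25 in any library, for FOXP1 (0.784% of its gene reads in the RbHiTn library without suffix), against 8.69% to 10.1% of gene reads per library over all models. The share of exon reads that spanned a junction differed between the genes and less between the subsets. It was 91.6% and 91.1% for LEF1 in RbHiTn and RbLoTem cells, 78.5% and 82.5% for TCF7, 81.5% and 81.9% for FOXP1, 67.1% and 66.6% for SATB1, 29.7% and 34.8% for BACH2 and 19.6% and 17.8% for BCL11B. KLF3 stood apart with 47.1% in RbHiTn cells and 69.8% in RbLoTem cells, on 121 and 43 reads, and the difference was not tested.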
